A study of Mus musculus with 9 samples.

Results

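The Nr4a receptors and CREB target genes described here are 7 of the 54532 genes listed in the expression values: Nr4a1, Nr4a2, Nr4a3, Crem, Mir212, Per1 and Sik1. They were chosen by name, with their levels in these samples already known, for a graded fall from the mature DCs of normal spleen through the mature DCs of leukemic spleen to the MHCII low DCs of leukemic spleen. All 3 comparisons between the groups entered that choice, so the members are described without tests.

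RNA was sequenced from 3 groups of dendritic cells (DCs) sorted from mouse spleen, with 3 samples per group. N-mDCs (library name N_DC_hi) are mature conventional DCs of untreated healthy mice. T-mDCs (T_DC_hi) are mature conventional DCs, and T-DCs (T_DC_lo) are CD11c+ cells with low surface MHCII, both from mice with T-cell acute lymphoblastic leukemia (T-ALL). The leukemia was started by a retrovirus that carries the intracellular domain of Notch1 and GFP, and GFP+ leukemia cells were passed to C57BL/6J or C57B6.SJL mice that were not irradiated, so these young adult female hosts kept their own hematopoietic cells. T-DCs were gated as negative for GFP and for lineage markers that included CD3 and NK1.1, and were sorted for low MHCII, so the surface MHCII level is part of the definition of the group.

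The Nr4a genes encode orphan nuclear receptors that are induced within minutes to hours by many stimuli, including cAMP, calcium and antigen or Toll-like receptor signals, and that limit inflammatory responses in myeloid cells. CREB is a transcription factor that binds cAMP response elements (CREs) once it is phosphorylated by protein kinase A or other kinases, and it acts with CRTC coactivators. Crem encodes a CREB family member whose short product ICER represses the same elements, Sik1 encodes a kinase that holds CRTC proteins in the cytoplasm, Per1 is a circadian repressor that cAMP also induces, and Mir212 is a microRNA gene transcribed with Mir132 from a CREB-responsive locus.

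The mature microRNAs of the Mir212 locus (RefSeq, GRCm38.p6) are given first, because their shared seed defines what the locus encodes. Both genes lie on the plus strand of chromosome 11, Mir212 at 75173388 to 75173478 and Mir132 at 75173682 to 75173747, with 203 bases between them. Capitals mark the seed, bases 2 to 8 from the 5′ end.
mmu-miR-212-3p: uAACAGUCuccagucacggcca
mmu-miR-132-3p: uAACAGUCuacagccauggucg
mmu-miR-212-5p: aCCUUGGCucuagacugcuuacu
mmu-miR-132-5p: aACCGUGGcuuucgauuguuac
Of the 1738 mature sequences in the table, 2 carried the seed AACAGUC, namely miR-212-3p and miR-132-3p. The 3p sequences were the same at 17 of 22 positions. Counted from the 5′ end, miR-132-3p differed from miR-212-3p by C10A, U14C, C17U, C20U and A22G, all outside the seed. The 5p sequences each had a seed that no other entry carried.

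Promoter sequences were found in the RefSeq table for 4 of the 7 members: Nr4a1, Nr4a2, Nr4a3 and Per1. They are shown because CREs are the elements through which CREB acts, and capitals mark the short CRE motif TGACG in either orientation, which reads CGTCA when it lies on the other strand. Nr4a1 (chr15:101266596-101266845, plus strand) and Nr4a2 (chr2:57124004-57124253, minus strand) are shown over the 250 bases before the start, Nr4a3 (chr4:48045055-48045152, plus strand) over the 98 bases farthest from it, and Per1 (chr11:69099902-69100151, plus strand) over the 250 bases before one of its starts.
Nr4a1: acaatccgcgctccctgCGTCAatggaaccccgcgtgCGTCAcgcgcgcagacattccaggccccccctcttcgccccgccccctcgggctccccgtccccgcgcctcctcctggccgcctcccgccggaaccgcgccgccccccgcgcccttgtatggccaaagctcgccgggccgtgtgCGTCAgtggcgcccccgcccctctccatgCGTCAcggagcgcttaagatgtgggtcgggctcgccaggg
Nr4a2: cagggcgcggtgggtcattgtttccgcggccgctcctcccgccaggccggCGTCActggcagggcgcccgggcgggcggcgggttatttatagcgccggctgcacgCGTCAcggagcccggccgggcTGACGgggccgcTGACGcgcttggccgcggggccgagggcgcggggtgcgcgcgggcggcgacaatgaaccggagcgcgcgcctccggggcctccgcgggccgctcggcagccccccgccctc
Nr4a3: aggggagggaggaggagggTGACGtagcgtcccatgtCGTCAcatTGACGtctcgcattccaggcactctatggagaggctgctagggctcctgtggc
Per1: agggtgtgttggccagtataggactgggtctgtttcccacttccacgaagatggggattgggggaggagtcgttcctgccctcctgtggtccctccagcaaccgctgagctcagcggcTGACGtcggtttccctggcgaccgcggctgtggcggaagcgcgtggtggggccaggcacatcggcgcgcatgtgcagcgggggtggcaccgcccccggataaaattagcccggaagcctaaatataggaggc
In the 250 bases before the start, the short motif occurred 4 times in each of Nr4a1, Nr4a2 and Nr4a3, and 1 time before each of the 2 starts listed for Per1. Of 32851 promoter windows of the same length, 17.8% held at least 1 such motif and 0.137% held at least 4. One of the 4 motifs of Nr4a3 lies nearer to the start than the stretch shown. The complete CRE palindrome TGACGTCA, which contains the short motif on both strands, was in none of these windows and in 1.55% of all windows. The Nr4a binding element AAAGGTCA was also in none of them (1.34% of all windows, both strands), and the E-box CACGTG, the element of the circadian clock, occurred 1 time before the other Per1 start (6.02% of all windows). The Nr4a1 stretch lies inside the gene as listed, which runs from 101254269 to 101274795. Any link between these motifs and the levels described below was not tested. A match is a description of the letters and not of binding.

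Values are FPKM, which divide the reads on a gene by its length and by the size of the library. The samples held 15360815 to 18440913 reads on genes. A total of 12746 genes reached an FPKM of 1 or more in 3 or more samples and were tested, among them all 7 members. Markers of DCs differed in how far T-DCs lay below the mature DCs. Flt3 was at 15.4, 6.11 and 4.48 FPKM in T-DC samples 1 to 3 against 44.4 to 89.1 FPKM in the other samples, and the summed level of 6 DC markers ran from 578 to 2180 FPKM in T-DCs, against 15817 to 23025 in N-mDCs and 10569 to 14944 in T-mDCs. Most of this sum came from the MHCII pathway genes Cd74, H2-Ab1 and H2-Aa, and low MHCII was the basis of the sort. Itgax, the gene of CD11c, was at 152, 90.4 and 43.0 FPKM in T-DC samples 1 to 3 and at 158 to 230 FPKM in the mature DC samples. T-DC sample 1 stood apart from T-DC samples 2 and 3. Its summed level of 6 red pulp macrophage markers was 2224 FPKM, against 759 and 484 FPKM, and its summed level of 8 erythroid markers was 596 FPKM, against 57906 and 41097 FPKM and 96.3 to 5277 FPKM in N-mDCs. Neutrophil markers were at 8.19, 3752 and 1273 FPKM in T-DC samples 1 to 3, at 55.0, 370 and 632 FPKM in N-mDC samples 1 to 3 and at 3.45 to 13.1 FPKM in T-mDCs. The chi-square per gene between T-mDC samples 2 and 3 was 1.85, where other pairs within a group gave 8.11 or more, and nothing in the sources used here says whether the samples came from separate mice. In bulk samples such as these, fewer cells of a type and less RNA per cell cannot be told apart.

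Of the 7 members, 3 showed the graded order without overlap, with every T-DC sample below every T-mDC sample and every T-mDC sample below every N-mDC sample: Nr4a2, Nr4a3 and Mir212. The same order was found in 2.13% of the tested genes. In 6 members both leukemic groups were below every N-mDC sample, against 6.66% of the tested genes, and the exception was Sik1. Comparing groups pairwise, every T-DC sample was below every N-mDC sample in 6 members (16.4% of the tested genes), every T-mDC sample was below every N-mDC sample in 7 (15.7%), and every T-DC sample was below every T-mDC sample in 3 (18.1%). These counts repeat the choice of the members and nothing is read from them. Nr4a1, Crem, Per1 and Sik1 did not show the graded order, since their T-DC and T-mDC samples overlapped.

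**Figure D1:**
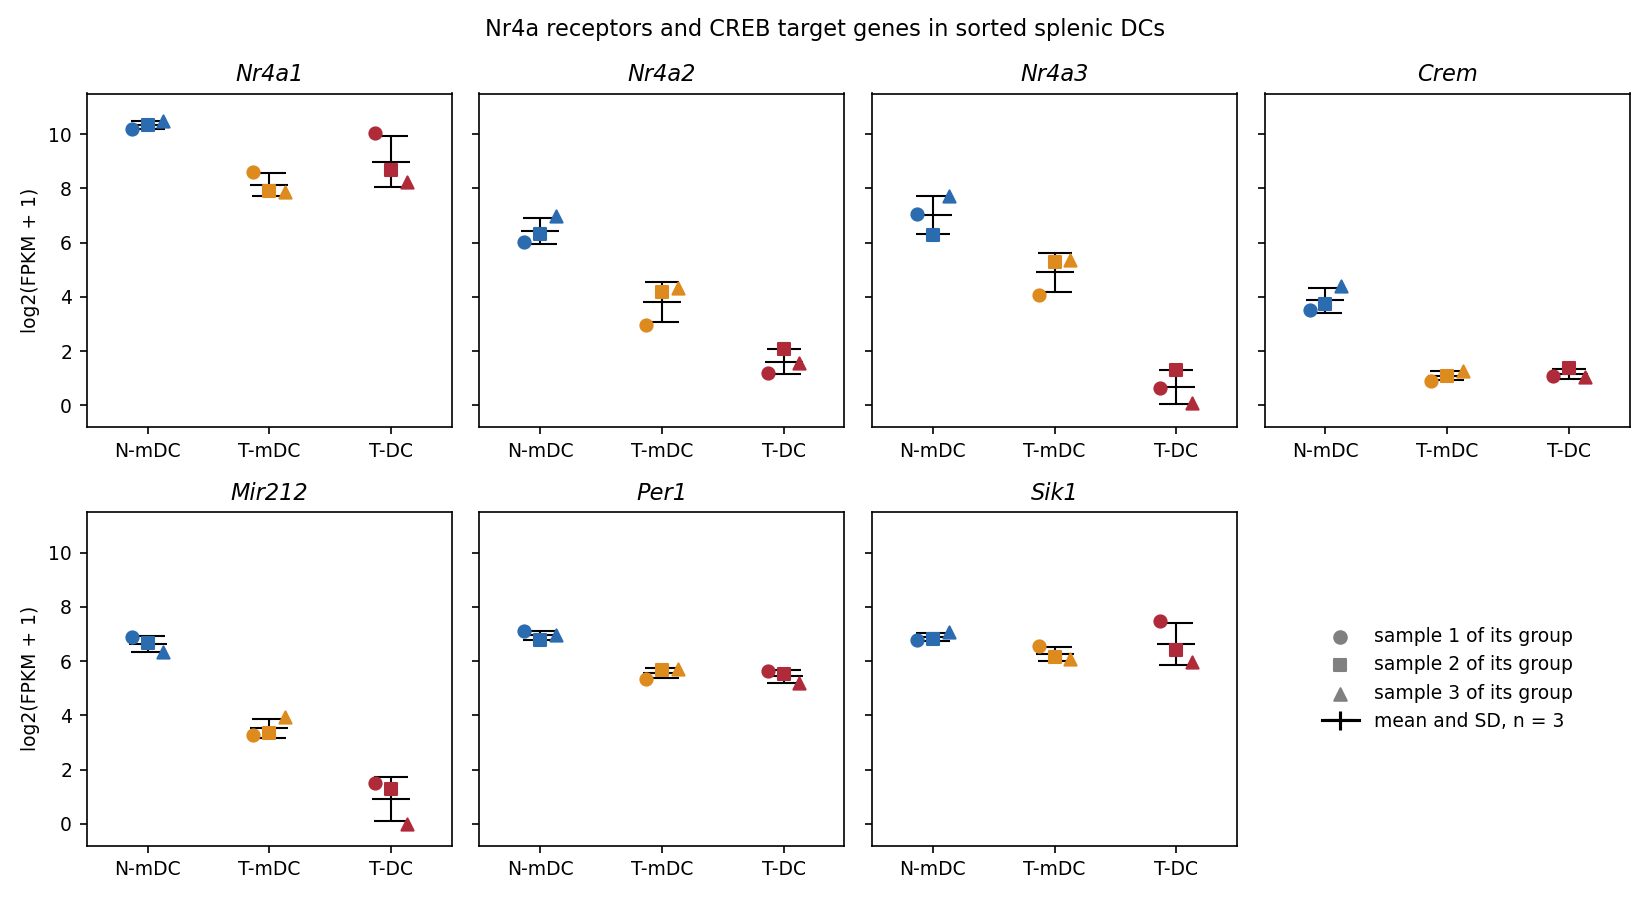
Level of each of the 7 members, as log2(FPKM + 1), in the 9 samples (points; the symbol gives the sample number within its group), with the mean and SD of each group of 3 as black bars. Nr4a2, Nr4a3 and Mir212 step down from N-mDCs to T-mDCs to T-DCs without overlap, Crem and Per1 are low in both leukemic groups, and T-DC sample 1 is high for Nr4a1 and Sik1.

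Nr4a1 was the receptor with the highest level in every sample. Its level was 1183, 1293 and 1435 FPKM in N-mDC samples 1 to 3, 1046, 408 and 302 FPKM in T-DC samples 1 to 3, and 392, 237 and 236 FPKM in T-mDC samples 1 to 3. T-DC sample 1 was close to the lowest N-mDC sample, whereas T-DC samples 2 and 3 lay near the T-mDC samples, and T-mDCs did not overlap N-mDCs. N-mDCs averaged 1304 ± 126 FPKM (SD, n = 3), T-DCs 585 ± 402 FPKM and T-mDCs 288 ± 90.0 FPKM. The mean in N-mDCs was 2.23 times that in T-DCs and 4.52 times that in T-mDCs, so the lowest mean was in T-mDCs and not in T-DCs. Without T-DC sample 1 the ratio to T-DCs was 3.67. The log2 difference between T-DCs and T-mDCs was 0.85 ± 0.43 (SE), and 0.33 without T-DC sample 1. Ranked among all genes of its sample, Nr4a1 was between places 16 and 32 in N-mDCs, 24 and 147 in T-DCs, and 94 and 171 in T-mDCs.

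Nr4a2 was at 63.5, 78.1 and 124 FPKM in N-mDC samples 1 to 3, 6.73, 17.2 and 18.9 FPKM in T-mDC samples 1 to 3, and 1.27, 3.27 and 1.93 FPKM in T-DC samples 1 to 3. The groups were separate, and T-mDC sample 1 was the lowest of the mature DC samples. The mean in N-mDCs, 88.6 ± 31.6 FPKM (SD, n = 3), was 6.21 times that in T-mDCs and 41.1 times that in T-DCs. The log2 differences from N-mDCs were -2.61 ± 0.42 (SE) for T-mDCs and -4.82 ± 0.42 for T-DCs.

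Nr4a3 was at 131, 77.9 and 209 FPKM in N-mDC samples 1 to 3, 15.8, 37.9 and 39.9 FPKM in T-mDC samples 1 to 3, and 0.578, 1.49 and 0.0550 FPKM in T-DC samples 1 to 3. The 3 groups did not overlap, and the T-DC values rested on 62, 138 and 5 reads. Summed over samples, 42468 reads in N-mDCs stood against 205 in T-DCs, a ratio of 202 after scaling to library size (95% exact interval 176 to 233, counting error only). T-DC sample 2 gave most of the T-DC reads, and the ratio of mean FPKM, 197 over all samples, was 440 without it. T-mDCs lay between, with a mean 4.46 times below that of N-mDCs and 44.2 times above that of T-DCs (98.6 times without T-DC sample 2).

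The 3 receptors together came to 1377, 1449 and 1768 FPKM in N-mDC samples 1 to 3, 415, 292 and 294 FPKM in T-mDC samples 1 to 3, and 1048, 413 and 304 FPKM in T-DC samples 1 to 3. Nr4a1 made up 81.2% to 89.2% of this sum in N-mDCs and 80.0% to 94.6% in T-mDCs, which overlapped, and 98.8% to 99.8% in T-DCs. In T-DC sample 1, where Nr4a1 was highest among the leukemic samples, Nr4a2 held 0.121% and Nr4a3 held 0.0552% of the sum. The high level of Nr4a1 in that sample therefore came with no matching level of the other 2 receptors.

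**Figure D2:**
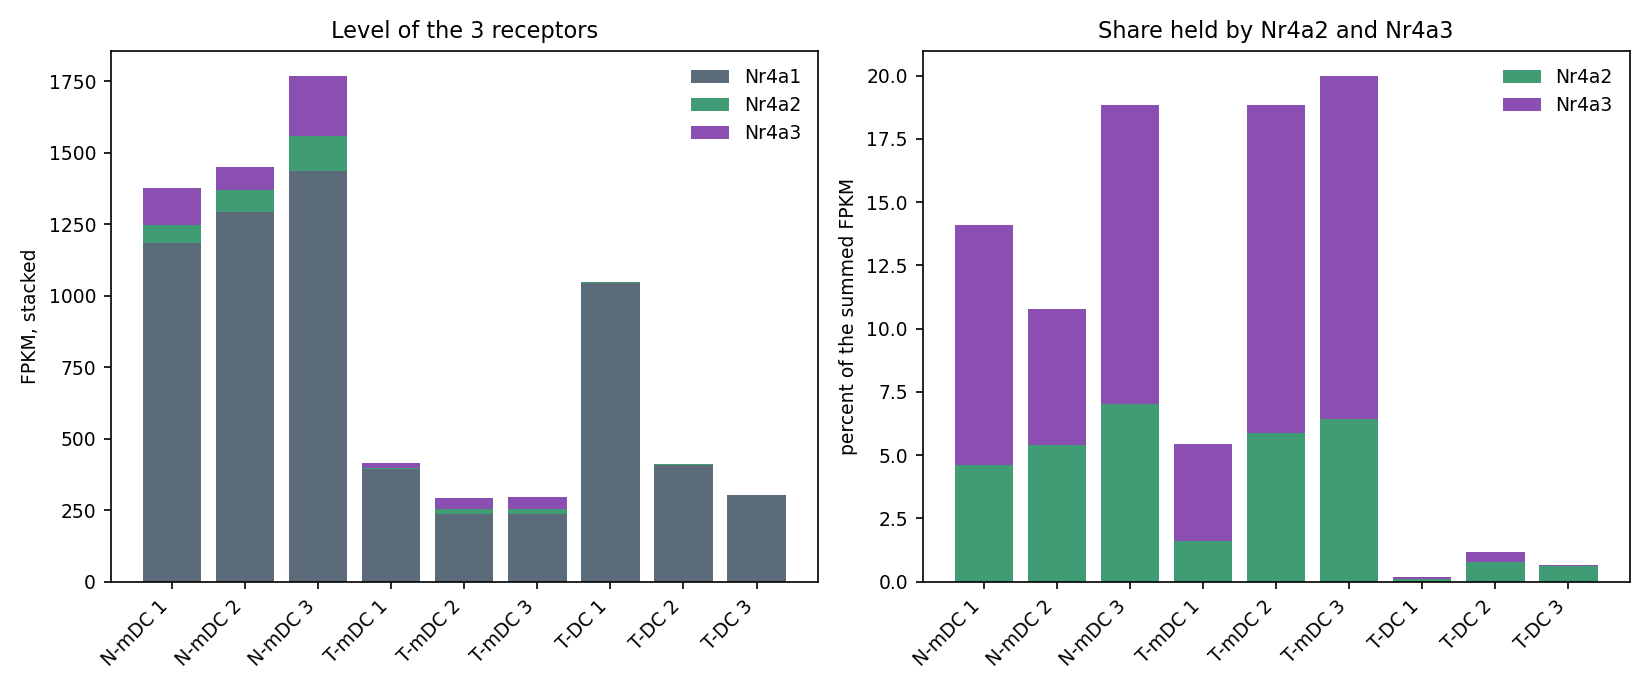
Left, FPKM of Nr4a1, Nr4a2 and Nr4a3 stacked for each of the 9 samples; right, the percent of that sum held by Nr4a2 and Nr4a3, without Nr4a1. Nr4a1 dominates every sample, and Nr4a2 and Nr4a3 together make up under 1.2% of the sum in each T-DC sample.

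Crem, the CREB family repressor gene, was at 10.4, 12.3 and 20.1 FPKM in N-mDC samples 1 to 3, 1.12, 1.62 and 1.05 FPKM in T-DC samples 1 to 3, and 0.890, 1.15 and 1.39 FPKM in T-mDC samples 1 to 3. Both leukemic groups were far below every N-mDC sample and overlapped each other. The mean in N-mDCs was 14.3 ± 5.18 FPKM (SD, n = 3), 11.3 times that in T-DCs and 12.5 times that in T-mDCs. The log2 difference between T-DCs and T-mDCs was 0.08 ± 0.25 (SE), and its sign turned when values were rescaled to TPM or read as counts. Summed FPKM of 4 NK cell markers moved in the same way, at 33.5, 78.7 and 102 in N-mDC samples 1 to 3, 0.812 to 13.4 in the T-DC samples and 1.02 to 2.02 in the T-mDC samples, with Klrb1c, the gene of NK1.1, at 2.29, 4.22 and 4.98 FPKM in N-mDCs and at most 0.392 FPKM in both leukemic groups. Summed FPKM of 4 B lineage markers was 199 to 279 in N-mDCs, 46.3 to 172 in T-mDCs and 31.0 to 87.5 in T-DCs. The part of these cells in the level of Crem was not tested. The values do not separate the transcripts of Crem, so ICER could not be told from the longer products.

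Sik1 was at 110, 111 and 133 FPKM in N-mDC samples 1 to 3, 179, 83.2 and 62.4 FPKM in T-DC samples 1 to 3, and 92.8, 69.5 and 66.1 FPKM in T-mDC samples 1 to 3. T-DC sample 1 was the highest of all 9 samples, and the other T-DC samples were below every N-mDC sample. The mean in N-mDCs was 1.09 times that in T-DCs and 1.55 times that in T-mDCs. The log2 difference between T-DCs and N-mDCs was -0.27 ± 0.36 (SE), which is within the spread of the samples, and it was -0.70 without T-DC sample 1 and 0.05 without T-DC sample 3. Sik1 and Nr4a1 were thus both high in the T-DC sample with high macrophage markers and few erythroid reads. Adgre1, the gene of the macrophage antigen F4/80, was at 281 FPKM in T-DC sample 1 and at 115 and 82.7 FPKM in T-DC samples 2 and 3. In T-mDCs too, sample 1 was the highest for Nr4a1, Sik1 and the 6 red pulp macrophage markers. The sum of these markers was 1005, 350 and 352 FPKM in T-mDC samples 1 to 3. N-mDCs did not share this order. There the sum was 1194, 2576 and 1414 FPKM in samples 1 to 3, highest in sample 2, whereas Nr4a1 and Sik1 were highest in sample 3. The part of macrophages in these levels was not tested.

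Per1 was at 138, 110 and 123 FPKM in N-mDC samples 1 to 3, 48.6, 45.7 and 35.3 FPKM in T-DC samples 1 to 3, and 39.6, 49.9 and 50.9 FPKM in T-mDC samples 1 to 3. The leukemic groups overlapped each other and were below every N-mDC sample. Per1 varied least within groups in T-DCs and T-mDCs, with a coefficient of variation of 16.3% and 13.3%. The mean in N-mDCs, 124 ± 13.9 FPKM (SD, n = 3), was 2.86 times that in T-DCs and 2.64 times that in T-mDCs.

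Mir212 spans 91 bases, so 1 read was worth 0.569 to 0.724 FPKM and its values rest on few reads. Its level was 119, 100 and 79.9 FPKM (448 reads in all, at most 169 in a sample) in N-mDC samples 1 to 3, 8.73, 9.10 and 14.3 FPKM (15, 16 and 24 reads) in T-mDC samples 1 to 3, and 1.84, 1.42 and 0 FPKM (3, 2 and 0 reads) in T-DC samples 1 to 3. The groups did not overlap. A count of 0 in T-DC sample 3 allows a level of up to 2.17 FPKM, the worth of 3 reads. The ratio of N-mDC to T-DC reads, 448 against 5, was 87.3 after scaling to library size (95% exact interval 37.1 to 270.1), and that of N-mDC to T-mDC reads, 448 against 55, was 9.24 (6.97 to 12.5). These intervals cover counting error only. The ratio of mean FPKM between N-mDCs and T-DCs was 91.8, and 141 without T-DC sample 1.

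The neighbours of Mir212 on the same strand showed the same order. Mir132 had 101, 88 and 77 reads in N-mDC samples 1 to 3, 9, 7 and 11 reads in T-mDC samples 1 to 3, and 5, 0 and 0 reads in T-DC samples 1 to 3. The transcript that spans both, 1700016P03Rik (chromosome 11, 75172560 to 75177633), had 840, 607 and 584 reads in N-mDC samples 1 to 3, 70, 173 and 124 reads in T-mDC samples 1 to 3, and 9, 2 and 0 reads in T-DC samples 1 to 3. Its ratio of N-mDC to T-DC reads was 180 (95% exact interval 100.3 to 361, counting error only), and its ratio of mean FPKM was 196, or 638 without T-DC sample 1. The reads on Mir212 and Mir132 cannot be told apart from reads of this longer transcript, and the values do not measure the mature microRNAs shown above.

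**Figure D3:**
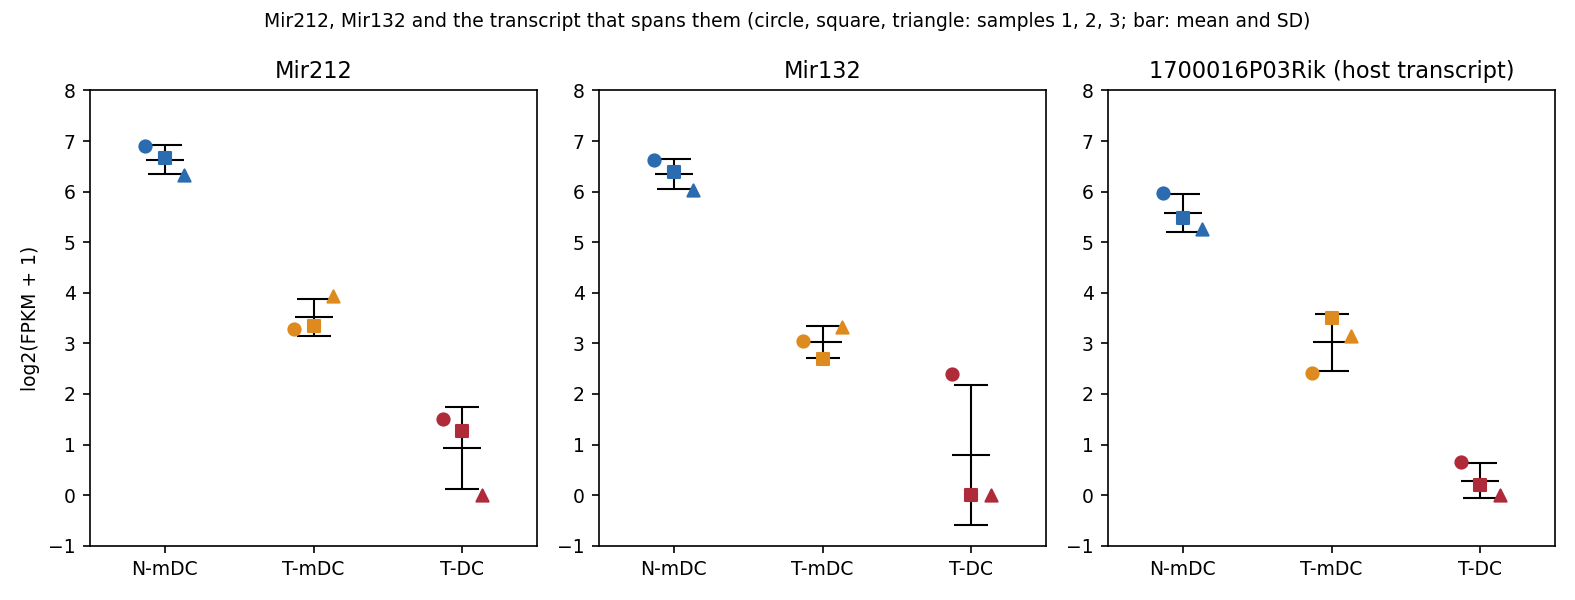
Level of Mir212, Mir132 and the spanning transcript 1700016P03Rik, as log2(FPKM + 1), in 3 samples of each group (points) with the mean and SD (bars). All 3 step down from N-mDCs to T-mDCs to T-DCs, and the longer transcript, with up to 840 reads, shows the order that the short genes show with at most 169.

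Ordered by mean FPKM, the members in N-mDCs ran Nr4a1 (1304), Nr4a3 (139), Per1 (124), Sik1 (118), Mir212 (99.7), Nr4a2 (88.6) and Crem (14.3). The samples of Nr4a3, Per1, Sik1, Mir212 and Nr4a2 overlapped along this order, whereas Nr4a1 stood above them and Crem below. In T-mDCs the order was Nr4a1 (288), Sik1 (76.1), Per1 (46.8), Nr4a3 (31.2), Nr4a2 (14.3), Mir212 (10.7) and Crem (1.14). In T-DCs it was Nr4a1 (585), Sik1 (108), Per1 (43.2), Nr4a2 (2.16), Crem (1.26), Mir212 (1.09) and Nr4a3 (0.707), and the last 4 overlapped each other. Nr4a3 thus held the second place in N-mDCs and the last in T-DCs.

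Over the 9 samples, on log2(FPKM + 1), Nr4a2 and Nr4a3 had a Pearson r of 0.96 with each other and of 0.96 and 0.95 with Mir212, while Nr4a1 had an r of 0.50 and 0.38 with Nr4a2 and Nr4a3 and of 0.86 with Sik1. The points share the 3 groups, so these values mostly describe differences between groups. The tested genes most like Nr4a3 were Grasp, a scaffold protein gene, Smim3 and Gem, a small GTPase gene that cAMP induces (r = 0.995, 0.995 and 0.988). Those most like Nr4a2 were Sc5d, an enzyme gene of cholesterol synthesis, Got1, the cytosolic aspartate aminotransferase gene, and Stk38l (0.987, 0.986 and 0.986). Those most like Nr4a1 were Slc7a2, an arginine transporter gene, Slc45a3 and Adcy3, an adenylate cyclase gene (0.990, 0.988 and 0.987). Mir212 was most like Cd209a, a C-type lectin gene of DCs, Tspyl2 and 1700016P03Rik (0.989, 0.984 and 0.983). Crem was most like Mmp13, Klra13-ps and Klrb1c (0.992, 0.991 and 0.991), of which the last is the NK marker given above. Klrb1c passed the filter on low values only through N-mDCs. Mmp13 and Klra13-ps averaged under 1 FPKM in both leukemic groups. No weight is therefore put on their likeness to Crem. Per1 was most like the lectin gene Clec7a, Bco2 and the lectin gene Cd209e (0.987, 0.980 and 0.980). Sik1 was most like Arhgap25, Ctss, the cathepsin S gene, and Kremen1 (0.978, 0.977 and 0.975).

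The rest of the pathway was compared in 1 limma fit of log2(FPKM + 1) over the 9 samples, with p-values adjusted over the 12746 tested genes. The 4 lists of related genes held 76 genes, of which 72 were tested. Between T-DCs and N-mDCs, 23 were lower and 4 higher in T-DCs (37.5%), where 16.4% of all tested genes were called, 10.3% lower and 6.1% higher. Between T-DCs and T-mDCs, 15 were lower and 5 higher (27.8%, against 14.2% of all tested genes, 8.79% lower and 5.44% higher). Between T-mDCs and N-mDCs, 3 were lower and 0 higher (4.17%, against 2.21%, 1.52% lower and 0.69% higher). None was higher by voom either, and 4 were higher at an unadjusted p under 0.05. Of all 12746 tested genes, 173 were called by voom there and 2130 had an unadjusted p under 0.05, in either direction. Of the list calls by limma in the 3 comparisons, 15, 6 and 1 stood under every alternative in which the gene was tested. The 1 between T-mDCs and N-mDCs was Areg, which passed the filter on low values only through N-mDCs. Without T-mDC sample 2 or 3 the count between T-DCs and T-mDCs was 6, and without T-DC sample 1 the counts were 42, 40 and 14.

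Other genes that CREB or cAMP induces were lower in T-DCs than N-mDCs as a list. Of 25 tested, 16 were lower and 1, Bcl2, was higher (68% called, against 16.4% of all tested genes). The median log2 fold change was -2.16, where that of all tested genes was 0.05. Atf3, a stress-induced factor of the CREB and ATF family, averaged 935 ± 36.3 FPKM in N-mDCs against 45.6 ± 31.0 in T-DCs (SD, n = 3), and its log2 fold change was -4.60 by limma (adjusted p = 0.00173). Ptgs2, the inducible cyclooxygenase that makes prostaglandins, was at 66.0 ± 25.5 and 2.05 ± 1.31 FPKM (-4.49, adjusted p = 0.000639). Egr3, an immediate early zinc finger factor, was at 66.0 ± 27.6 and 2.05 ± 1.34 FPKM (-4.49, adjusted p = 0.00164). Mir132 fell by 5.55 on the log2 scale (adjusted p = 0.00123), with the reads given above. Its reads cannot be told from those of the transcript that also spans the member Mir212. This call is therefore no result separate from that member, although it is counted in the list. Fosb, Gem, Egr2, Vegfa, Pde4b, Areg, Junb and Irs2 were also lower under every alternative in which they were tested. Of these, Areg passed the filter on low values only through N-mDCs, so no weight is put on its call. Dusp1, a MAP kinase phosphatase gene, averaged 957 ± 119 FPKM in N-mDCs against 716 ± 485 in T-DCs and did not pass (adjusted p = 0.298), with T-DC sample 1 at 1273 FPKM. Cebpb, at 176 ± 86.1 and 487 ± 385 FPKM, did not pass either (adjusted p = 0.315).

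Between T-DCs and T-mDCs, 8 of these 25 genes were lower and 2, Per2 and Bcl2, were higher (40%, against 14.2%). The median was -0.80 against 0.07. Ptgs2 (-3.83, limma adjusted p = 0.00177), Egr3 (-3.13, adjusted p = 0.00713) and Gem (-2.43, adjusted p = 0.00752) were lower under every alternative. Atf3 was lower by limma (-2.88, adjusted p = 0.0119) but not without T-mDC sample 2 or 3, with an adjusted p of up to 0.0616 over the alternatives. Its call was also lost with only the groups compared and with T-mDC samples 2 and 3 averaged. Fos, with means of 387 ± 305 FPKM for T-DCs and 605 ± 146 for T-mDCs (SD, n = 3), did not pass (limma adjusted p = 0.259). Between T-mDCs and N-mDCs, 3 were lower, Thbs1, Mir132 and Areg (12%, against 2.21%), and the median was -1.14 against 0.03. Areg, an EGF family growth factor gene, averaged 4.94 ± 0.914 FPKM in N-mDCs against 0.235 ± 0.129 in T-mDCs (-2.26, adjusted p = 0.00218) and was lower in the 17 alternatives in which it was tested, whereas Thbs1 and Mir132 passed in 6 and 7 of 18 alternatives. Areg passed the filter on low values only through N-mDCs, since the leukemic samples were at 0.0852 to 0.372 FPKM. No weight is therefore put on this call. Thbs1 too needed the N-mDC samples to pass the filter. Its T-mDC samples were at 0.528 to 0.628 FPKM, and its T-DC samples 1 to 3 at 0.644, 7.78 and 3.77 FPKM. No weight is put on its call either, and that of Mir132 is no result separate from the member Mir212. The graded order without overlap was found in 8 of the 25 genes (32%, against 2.13% of all tested genes): Atf3, Fosb, Pde4b, Egr3, Mir132, Egr2, Gem and Vegfa. The lists were chosen with earlier results of these data known, and Mir132 shares its spanning transcript with the member Mir212. Nothing is therefore read from this count.

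The next list held genes of cAMP receptors, cyclases, protein kinase A and phosphodiesterases. Of 27 tested, 6 were lower and 0 higher in T-DCs than N-mDCs (22.2%, against 16.4% of all tested genes), and 6 were lower and 2 higher than in T-mDCs (29.6%, against 14.2%). Between T-mDCs and N-mDCs 0 passed by limma or by voom (against 2.21%), and 7 had an unadjusted p under 0.05 (2130 of all 12746 tested genes). Pde4b, a cAMP phosphodiesterase gene that cAMP itself induces, averaged 63.6 ± 17.9 FPKM in N-mDCs, 33.0 ± 11.8 in T-mDCs and 9.22 ± 4.03 in T-DCs (SD, n = 3; -2.71 against N-mDCs, limma adjusted p = 0.00444). Pkib, a protein kinase A inhibitor gene, was at 5.43 ± 0.784, 5.67 ± 0.964 and 1.08 ± 0.781 FPKM in the same order (-1.69 against N-mDCs, adjusted p = 0.00529). Adora2a, the adenosine receptor gene that raises cAMP, was highest in T-mDCs, at 55.9 ± 6.20 FPKM against 26.1 ± 7.87 in N-mDCs and 10.2 ± 4.43 in T-DCs, and was lower in T-DCs than in T-mDCs under every alternative (-2.43, adjusted p = 0.00397). Hrh2, the histamine H2 receptor gene, was also lower in T-DCs than in T-mDCs in the 17 alternatives in which it was tested (-1.52, adjusted p = 0.00455). Prkar1a, a regulatory subunit gene, averaged 69.8 ± 12.4, 62.0 ± 1.52 and 59.7 ± 2.35 FPKM in N-mDCs, T-mDCs and T-DCs and passed in none of the comparisons (adjusted p of 0.43 to 0.86).

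A further list held the CREB factors, CRTC coactivators and SIK kinases other than the members. Of 10 tested, 1 (Sik2) was higher in T-DCs than N-mDCs (10%, against 16.4% of all tested genes). Against T-mDCs, 1 (Crtc2) was lower in T-DCs (10%, against 14.2%). By voom 3 passed there (1910 of all 12746 tested genes), and 5 changed either way at an unadjusted p under 0.05 (3833 of all 12746). Between T-mDCs and N-mDCs 0 passed by limma or by voom (against 2.21%), and 1 had an unadjusted p under 0.05 (2130 of all 12746). Creb1 itself averaged 5.90 ± 1.56 FPKM in N-mDCs, 5.94 ± 0.989 in T-DCs and 8.66 ± 1.45 in T-mDCs (SD, n = 3), with limma adjusted p of 0.95 between T-DCs and N-mDCs and 0.192 between T-DCs and T-mDCs. It is named for its role and outside the rule for named genes. Crtc2 averaged 28.9 ± 1.48, 36.9 ± 5.43 and 17.8 ± 5.52 FPKM in N-mDCs, T-mDCs and T-DCs, and its call between T-DCs and T-mDCs (-1.04, adjusted p = 0.0197) was lost without 1 of T-DC samples 2 and 3 or T-mDC samples 2 and 3 (adjusted p of up to 0.0982 over the alternatives). It was also lost with only the groups compared and with T-mDC samples 2 and 3 averaged. Sik2 passed in 4 of 17 alternatives. The values are of RNA, and phosphorylation of CREB was not measured.

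Calcium signals through calcineurin, NFAT and MEF2 factors also induce Nr4a genes. Of 12 tested genes, 2 were lower (Nfatc2, Ppp3cc) and 2 higher (Nfatc3, Rcan1) in T-DCs than N-mDCs (33.3%, against 16.4% of all tested genes). Against T-mDCs, 1 was lower (Nfatc2) and 1 higher (Rcan1) in T-DCs (16.7%, against 14.2%). Between T-mDCs and N-mDCs 0 passed by limma or by voom (against 2.21%), and 0 had an unadjusted p under 0.05 (2130 of all 12746). Nfatc2 averaged 8.45 ± 1.51 FPKM in N-mDCs, 8.36 ± 2.94 in T-mDCs and 1.90 ± 1.08 in T-DCs (SD, n = 3). It was lower in T-DCs than N-mDCs under every alternative (-1.76, limma adjusted p = 0.00986). Rcan1, a calcineurin inhibitor gene that calcineurin induces, averaged 24.0 ± 11.1 FPKM in T-DCs against 8.24 ± 1.25 in N-mDCs (1.35, adjusted p = 0.0368), and passed in 8 of 18 alternatives.

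**Figure D4:**
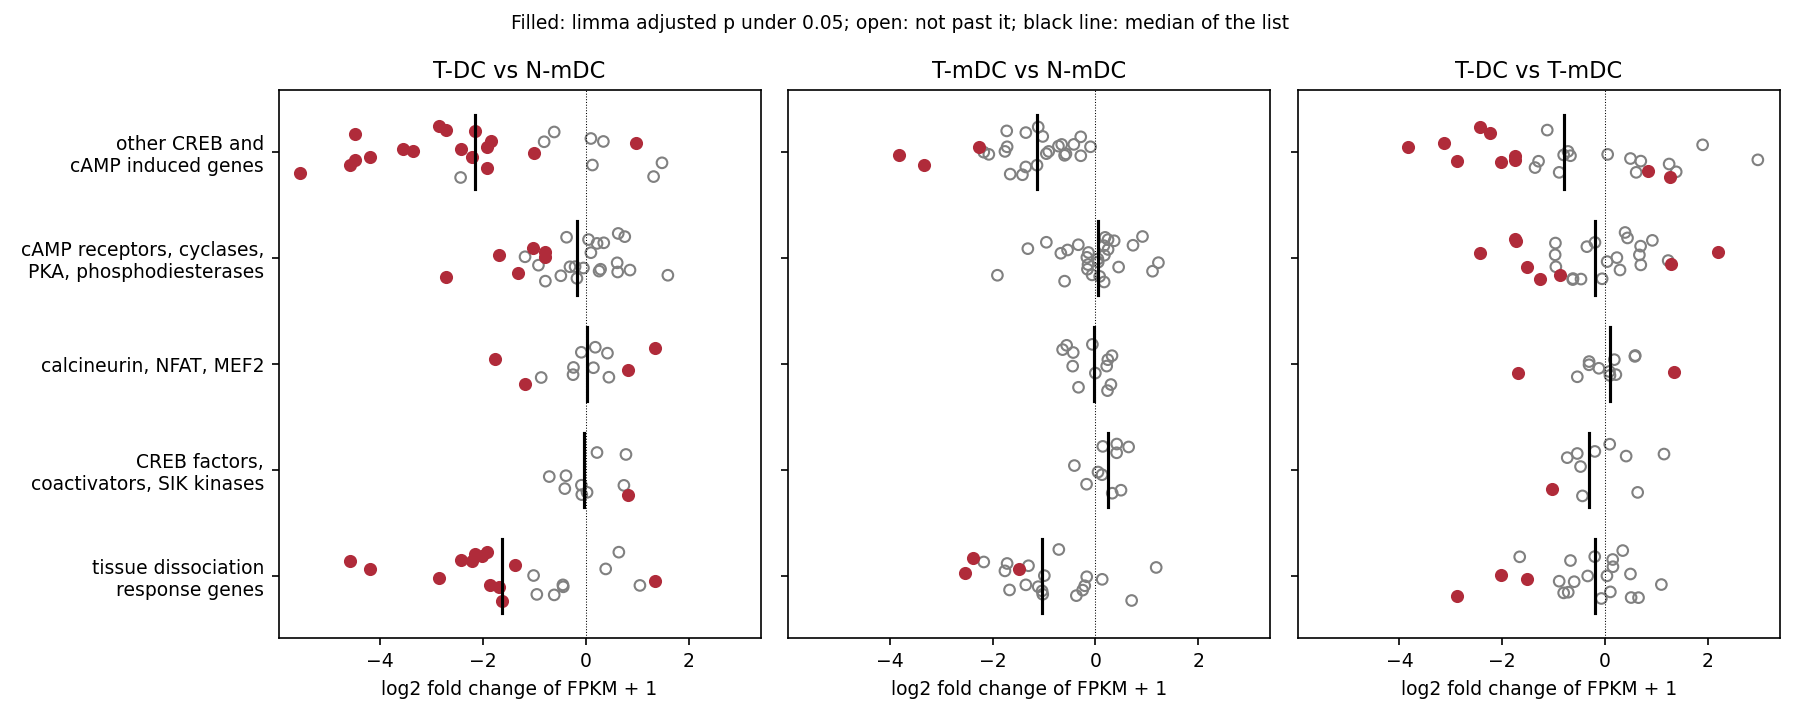
Log2 fold change of each tested gene of 5 lists in the 3 comparisons (points, spread vertically for view), filled where limma's adjusted p was under 0.05, with the median of the list as a black line. In T-DCs against N-mDCs the CREB and cAMP induced genes and the tissue dissociation response genes lie to the left, with medians of -2.16 and -1.63, and the other lists lie around 0.

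Many of the same genes respond to the dissociation of tissue into single cells. Of 21 genes in a list of this response, 12 were lower and 1 (Socs3) higher in T-DCs than N-mDCs, with a median of -1.63 (61.9% called, against 16.4% of all tested genes), 3 were lower than in T-mDCs (14.3%, against 14.2%), and 3 (Hspa1a, Btg2, Jund) were lower in T-mDCs than in N-mDCs (14.3%, against 2.21%). Of these calls, 7, 0 and 0 stood under every alternative in which the gene was tested. Hspa1a, a heat shock gene, averaged 19.2 ± 5.11 FPKM in N-mDCs, 2.42 ± 0.113 in T-mDCs and 1.89 ± 1.23 in T-DCs (SD, n = 3; -2.86 for T-DCs against N-mDCs, limma adjusted p = 0.00158). Btg2 was at 898 ± 157, 171 ± 14.6 and 199 ± 79.5 FPKM in the same order. The part of handling in the levels of the members was not tested.

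Other families share a member or a structure with the 7 genes. Of 17 other circadian clock genes tested, 5 (Bhlhe40, Nr1d1, Dbp, Ciart, Nfil3) were lower in T-DCs than N-mDCs. These made up 29.4% of the list, while the rate over the 12746 tested genes was 16.4%. With T-mDCs as the reference, T-DCs had 3 clock genes lower and 1 (Per2) higher (23.5%, at a general rate of 14.2%). Between T-mDCs and N-mDCs 0 passed by limma or by voom, where the general limma rate was 2.21%. There 3 clock genes had an unadjusted p under 0.05 (2130 of all 12746). None of these calls stood under every alternative in which the gene was tested. Bhlhe40 averaged 168 ± 37.5 FPKM in N-mDCs, 180 ± 70.2 in T-mDCs and 43.5 ± 28.1 in T-DCs (SD, n = 3), unlike Per1, whose T-mDC samples were all below those of N-mDCs. Per1 was not alone in this order, which was found in 15.7% of all tested genes. Among others, Dbp was at 2.02 to 2.97 FPKM in T-mDCs and 4.05 to 6.91 in N-mDCs. Nr1d1 was at 0.565 to 1.38 and 3.24 to 7.95 FPKM. Neither passed between these groups (limma adjusted p = 0.235 and 0.054). Nr1d1 needed the N-mDC samples to pass the filter on low values, so no weight is put on its call against T-DCs. The hour at which the spleens were taken is not given in the sources used here. Of 17 other nuclear receptor genes tested, 1 (Nr1d1) was lower in T-DCs than N-mDCs (5.88%, against 16.4%). Against T-mDCs, 2 (Nr2f6, Rora) were lower and 1 (Thra) higher in T-DCs (17.6%, against 14.2%). Between T-mDCs and N-mDCs 0 passed by limma or by voom (against 2.21%), and 2 had an unadjusted p under 0.05 (2130 of all 12746). Thra, a thyroid hormone receptor gene, averaged 4.92 ± 2.06 FPKM in T-DCs against 0.800 ± 0.451 in T-mDCs (1.69, limma adjusted p = 0.00661).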

How the data were processed

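Bulk RNA-seq of 9 samples in 3 groups of 3 was used, grouped by the titles of the samples. The authors deposited FPKM per gene, with gene length in bases as an other value. The submitters' processing notes name the genome build mm10, and the aligner, the counting, its use of strand and the annotation are not given in the sources used here. FPKM times gene length times a library size found for each sample gave a whole number of reads for 100% of values, within 0.01 of a read, and these rebuilt reads gave the depth. The reads of other assays of the study were not analysed here.

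The 12746 genes that reached an FPKM of 1 in 3 or more samples were fitted as log2(FPKM + 1) by limma 3.58.1 (R 4.3.3, empirical Bayes with trend) over all groups, with Benjamini-Hochberg adjustment and a threshold of 0.05, so fold changes of genes with low values are understated. The procedure was tested on simulated data. The members and lists were chosen with earlier results of these data known. Named genes were the members, Mir132, up to 4 called genes with the largest change and 2 uncalled genes with the highest level per list and comparison, calls that stood under every alternative in which the gene was tested, and the 3 genes most like each member by Pearson r. Sequences came from RefSeq tables (GRCm38.p6), and motifs were searched on both strands. The main fit did not pair samples by replicate number. Correlations of same-numbered samples ran from -0.47 to 0.27, and those of differently numbered samples from -0.36 to 0.43. With 3 samples per group these values cannot show whether samples of different groups came from the same mice. Alternatives were a pseudocount of 0.1, no filter, an FPKM minimum of 5, TPM, median-of-ratios scaling, only the groups compared, a replicate block, each sample left out, the mean of T-mDC samples 2 and 3, and voom on the recovered reads. Ratios of mean FPKM without 1 sample were added after the data were seen. Some items covered by these rules are not reported here.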

Additional observations from a re-analysis of the deposited data

How the results depend on the processing

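The spread between 3 samples per group, and a few reads on Mir212 and Mir132, limit these values. For T-DCs against N-mDCs 2096 genes were called, and 1070 with only the groups compared, 1378 with a replicate block, 1394 with T-mDC samples 2 and 3 averaged, and 980 to 5030 with 1 sample left out. For T-DCs against T-mDCs 1813 were called (693 higher, 1120 lower), and 1190 with an FPKM minimum of 5, 1036 with only the groups compared, 540 with that average, and 541 to 4475 with 1 sample left out. For T-mDCs against N-mDCs 282 were called (88 higher, 194 lower), and 107 with a pseudocount of 0.1, 111 with the minimum of 5, 850 with only the groups compared, 78 with the block, 23 with that average, 173 with voom, and 23 to 1022 with 1 sample left out. TPM moved the median of all genes by -0.12 for T-DCs against N-mDCs, by -0.29 for T-DCs against T-mDCs (443 higher, 1550 lower) and by 0.19 for T-mDCs against N-mDCs (96 higher, 109 lower), and voom moved it by -0.14 and 0.10 in the last 2. Over the 4 pathway lists, the 27 calls against N-mDCs became 16 with no filter, 17 with TPM, 15 with only the groups compared, 17 with the block, 17 with that average, and 16 to 42 with 1 sample left out. The 20 against T-mDCs became 12, 6 and 6 to 40 with only the groups compared, that average and 1 sample left out. The 3 between the mature groups became 1 with the pseudocount, the minimum of 5, the block and that average, 14 with only the groups compared, and 1 to 14 with 1 sample left out. The median log2 difference of the members between T-DCs and N-mDCs, -2.71, was -3.36 with the pseudocount and -3.51 with voom, and that between T-DCs and T-mDCs, -0.12, was 0.018 without T-DC sample 3 and -0.23 to 0.018 with 1 sample left out. Signs turned for Sik1 between T-DCs and N-mDCs (-0.70 to 0.052 with 1 sample left out, the highest without T-DC sample 3) and between T-DCs and T-mDCs (-0.061 to 0.69, the lowest without T-DC sample 1), for Per1 between T-DCs and T-mDCs (-0.23 to 0.018, the highest without T-DC sample 3), and for Crem between T-DCs and T-mDCs (-0.035 to 0.16 with 1 sample left out, below 0 without T-DC sample 2 or T-mDC sample 1, -0.15 with TPM and -0.0046 with voom). The ratio of mean FPKM of Sik1 in N-mDCs to T-DCs, 1.09, ran from 0.902 to 1.62 with 1 sample left out, below 1 without T-DC sample 2 or 3. Of the other member values on the log2 scale, 349 moved by less than 1 SD and 22 by more, with no change of sign. Many of the 349 could not move. A difference of group means stays the same under another filter, with only the groups compared and with the replicate block. It also stays the same when samples of the third group are left out or averaged. The count of 349 is therefore no measure of how stable the values are. Named list genes kept their side of the threshold in 2251 of their values, lost it in 280 and gained it in 34. The cause of these changes was not tested.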
